A study of Homo sapiens with 16 samples.

Results

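The miR-183, miR-96 and miR-182 cluster is a group of 3 miRNA genes that lie close together on chromosome 7 and give rise to hsa-miR-182-5p, hsa-miR-183-5p and hsa-miR-96-5p. The members were taken by name, as the table rows of these 3 mature miRNAs, and make up 3 of the 915 miRNA entries of the table. Small RNA was sequenced from 2 human cancer lines without any treatment, PC3 from the prostate and MDA-231 (MDA-MB-231 in full, written MDA here) from the breast. Both are labelled as wild type, epithelial and grown in DMEM with 5% FBS. The study's methods instead give a higher share of FBS for MDA than for PC3, so the lines may also differ in the serum they were kept in, and the part of serum in the line differences was not tested. From each line, 2 libraries were made from the donor cells and 2 from extracellular vesicles (EVs) obtained by each of 3 methods. ATPS is an aqueous system of polyethylene glycol and dextran in which EVs collect in the dextran-rich phase. VC is read here as ultracentrifugation, the further method named in the notes on RNA extraction, and Qiagen is the exoRNeasy column kit. The EVs came from medium conditioned by cells kept without serum. This gives 8 groups of 2 libraries, 16 in all. Each tissue is represented by 1 line. The labels do not tell whether paired libraries of a group are independent cultures, and the p-values below may therefore reflect technical spread alone.

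miRNAs are short RNAs cut from a hairpin precursor, and each guides a silencing complex to messenger RNAs, mainly through its seed, bases 2 to 8 from the 5′ end. The genes of this cluster lie on the same strand and are commonly described as products of 1 primary transcript. The cluster is best known from hair cells of the inner ear, photoreceptors and other sensory cells, and is often raised in cancers of epithelial origin.

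The mature sequences are shown because the members differ in the letters that select targets, with the seed in capitals.
hsa-miR-182-5p: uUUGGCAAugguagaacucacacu
hsa-miR-183-5p: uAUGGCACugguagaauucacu
hsa-miR-96-5p: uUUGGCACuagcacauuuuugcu
Counted from 1 at the 5′ end, hsa-miR-96-5p and hsa-miR-182-5p differ in the seed by C8A, and hsa-miR-96-5p and hsa-miR-183-5p by U2A. Between hsa-miR-182-5p and hsa-miR-183-5p the seed differs by U2A and A8C. Over their whole length, seed included, these 2 are close, with the same base at 18 of 22 positions compared. All 3 share bases 3 to 7, UGGCA. Among the 2370 mature sequences of the RefSeq table (GRCh38.p14), the seeds of hsa-miR-182-5p and hsa-miR-183-5p belong to no other miRNA, and that of hsa-miR-96-5p is shared by hsa-miR-1271-5p alone, which was not analysed here.

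On GRCh38, the build of the deposited files (hg38), the hairpins lie on the minus strand at chr7:129770383-129770492 (MIR182), chr7:129774692-129774769 (MIR96) and chr7:129774905-129775014 (MIR183). MIR183 and MIR96 are separated by 135 bases and MIR96 and MIR182 by 4199 bases, so the whole cluster spans 4632 bases. In GENCODE 44 all 3 hairpins lie within the lncRNA gene ENSG00000286380 on the same strand (chr7:129763060-129780220) and overlap 0 of its exons.

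Levels are given as TPM, which in these files is the share of an entry in the miRNA reads of its library, scaled to the same total in every library, with no term for length. The libraries held 1982 to 97408 miRNA reads, apart from MDA cell replicate 2 with 153. That library can hold an entry at 0 for want of reads, and many results that rest on it are given with and without it. Reads listed under mature names, as opposed to hairpin names, made up 35.5% to 81.0% of a library, lowest in MDA ATPS. The epithelial miR-200 family and its partners, which mark the labelled cell type, were nearly absent. Of the 6 listed, 3 were in the table, and the most abundant, hsa-miR-200b-3p, had 23 reads over all libraries. Of 8 markers of blood cells and serum, 1 was in the table, hsa-miR-486-5p with 48 reads, and of 4 markers of neurons and sensory cells, 2 were in it, led by hsa-miR-9-5p with 77 reads.

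The members differed widely in abundance. hsa-miR-182-5p had 37979 reads over the 16 libraries, hsa-miR-183-5p 372 and hsa-miR-96-5p 25. In each of the 15 libraries with more than 153 reads, hsa-miR-182-5p held 93.1% to 99.5% of the reads of the 3 members. Its lowest shares were in MDA ATPS, 93.1% (95% exact binomial interval 87.7% to 96.6%) and 95.5% (91.4% to 98.1%), and its highest in PC3 EVs. These and all other counting intervals cover counting error only and leave out the spread between libraries. The libraries also carry no molecular identifiers. In every group the 2 libraries differed by more than counting error (chi-square test, from p = 0.0337 in MDA cells to p = 2.8e-303 in MDA VC).

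hsa-miR-182-5p, which targets FOXO transcription factors among others, was far higher in PC3 than in MDA and highest in PC3 EVs. In PC3 cells its level was 102028 and 92179 TPM. In PC3 EVs it was 549433 and 562229 TPM with ATPS, 475568 and 493421 TPM with VC and 513915 and 496412 TPM with Qiagen. It was the most abundant entry of all 6 PC3 EV libraries and of no cell library. In MDA cells the level was 19090 TPM and, from 4 of 153 reads, 26144 TPM (2.61% of reads, exact interval 0.717% to 6.56%). In MDA EVs it was 15611 and 35221 TPM with ATPS, 26971 and 35284 TPM with VC and 49734 and 71645 TPM with Qiagen. No PC3 library overlapped an MDA library, and the lowest PC3 value, in cells, lay above the highest MDA value, in Qiagen EVs. By group mean the order was PC3 ATPS, PC3 Qiagen, PC3 VC, PC3 cells, MDA Qiagen, MDA VC, MDA ATPS and MDA cells. MDA VC, MDA ATPS and MDA cells overlapped their neighbours in this order, and the other groups did not.

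**Figure D1:**
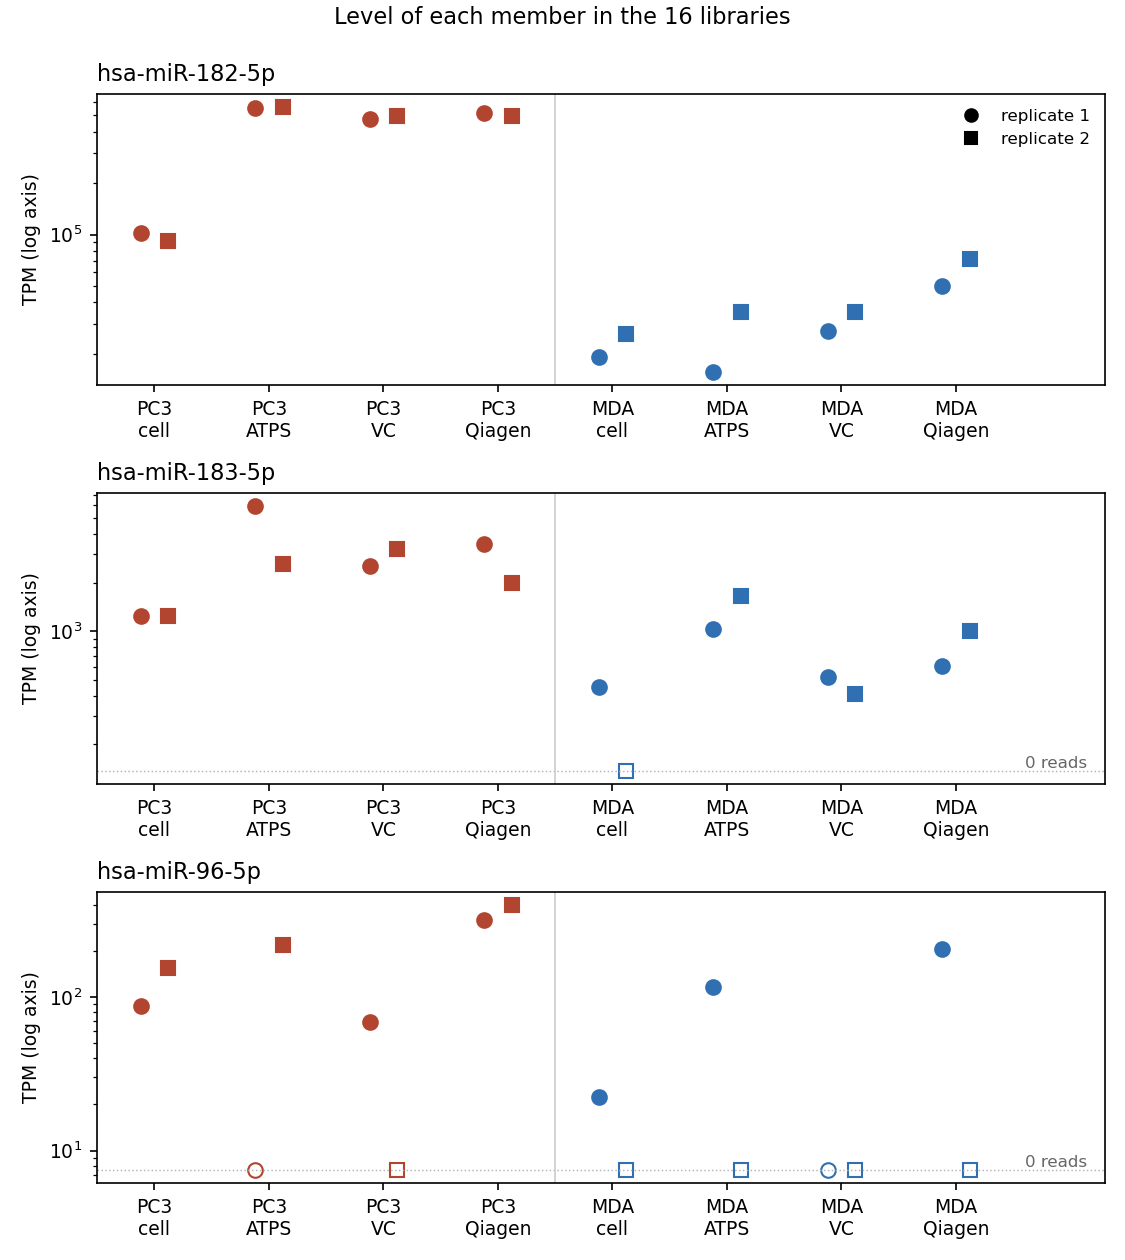
TPM of hsa-miR-182-5p, hsa-miR-183-5p and hsa-miR-96-5p (log axes, 1 panel each) in the 16 libraries by line and material, with circles for replicate 1, squares for replicate 2 and open symbols on the dotted line for 0 reads. The PC3 EV libraries sit highest for hsa-miR-182-5p, and hsa-miR-96-5p is at 0 reads in 7 of 16 libraries.

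The lines were compared first, within each material. A limma model of log2(TPM + 1) covered 566 entries, all 3 members among them, with Benjamini-Hochberg adjustment within a comparison and a threshold of 0.05. hsa-miR-182-5p was higher in PC3 than in MDA by 2.12 on the log2 scale in cells (4.34-fold, standard error 0.33, adjusted p = 0.0037). In EVs the difference was 4.57 with ATPS (23.7-fold, adjusted p = 1.25e-06), 3.97 with VC (15.7-fold, adjusted p = 7.3e-06) and 3.08 with Qiagen (8.46-fold, adjusted p = 0.00017), each with the same standard error. The lines were thus called different in all 4 materials for this member. Of all 566 entries, 3.18% were called higher in PC3 in cells, 0.177% with ATPS (hsa-miR-182-5p alone), 0.707% with VC and 1.06% with Qiagen. The median difference of all entries was 2.21 in cells and 0.00 in each kind of EV. Without MDA cell replicate 2, whose 153 reads leave most entries at 0, the median in cells was 0.00 and the difference of hsa-miR-182-5p was 2.34 (adjusted p = 0.0082). In limma with no filter on low values, over all 915 entries, these calls were lost (adjusted p = 0.132 to 0.257), while in the test by edgeR they passed (adjusted p = 3.17e-05 to 0.00507). The edgeR differences were 3.39 in cells, 4.35 with ATPS, 3.96 with VC and 3.07 with Qiagen, so that the value in cells, the lowest of the 4 in limma, lay above that with Qiagen.

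Since a TPM is a share of its library, the level of hsa-miR-182-5p was also set against the other mature-named entries of the same library, which leaves out the reads under hairpin names. It held 17.9% ± 1.47 (SD, n = 2) of the mature-named reads in PC3 cells and 70.7% ± 2.63, 68.1% ± 0.854 and 62.8% ± 0.832 in PC3 ATPS, VC and Qiagen EVs. In MDA the shares were 3.23% ± 0.917 in cells and 6.28% ± 2.66, 7.06% ± 1.34 and 10.6% ± 1.89 in ATPS, VC and Qiagen EVs (SD, n = 2). All MDA EV libraries, at 4.40% to 12.0%, lay above both MDA cell libraries, at 2.59% and 3.88%. The 3.88% comes from 4 of 103 mature-named reads in MDA cell replicate 2, so this separation rests mainly on cell replicate 1. On this scale PC3 exceeded MDA by 4.15 in the log2 ratio of hsa-miR-182-5p to all other mature-named reads (exact permutation test of 8 against 8 libraries within material, p = 0.00154, adjusted p = 0.00231). EVs exceeded cells by 2.26 over both lines (exact permutation test of 12 against 4 libraries within line, p = 0.00128, adjusted p = 0.00231). Both p-values are the smallest that the arrangements allow, 1296 for lines and 784 for EVs and cells, and adjusted values are over the 6 planned ratio tests. Within PC3 the ratio was 3.25 higher in EVs than in cells, and within MDA 1.26, or 1.64 against MDA cell replicate 1 alone.

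**Figure D2:**
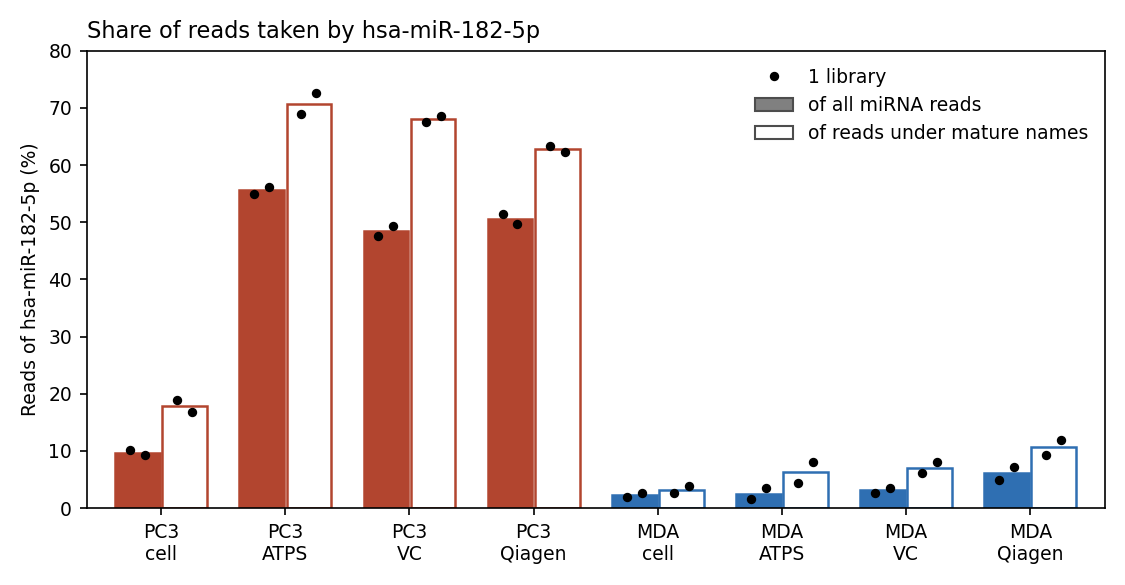
Reads of hsa-miR-182-5p as a percentage of all miRNA reads (filled bars) and of reads under mature names (open bars), with bars for the mean of a group and points for its 2 libraries. PC3 EVs reach 62.8% to 70.7% of mature-named reads on average, PC3 cells 17.9% and MDA groups 3.23% to 10.6%.

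EVs were next compared with their donor cells, in comparisons that share the 2 cell libraries of a line. In PC3, hsa-miR-182-5p was higher in EVs with each method, by 5.73-fold with ATPS, 5.00-fold with VC and 5.21-fold with Qiagen (limma, standard error 0.33 on the log2 scale, adjusted p = 0.00057, 0.0014 and 0.00079). These were among 0.883%, 1.24% and 1.24% of entries called higher, while the median of all entries was -1.75, -1.06 and -1.75 on the log2 scale. In the test by edgeR on recovered reads the differences were 1.76, 2.10 and 1.27 and missed the threshold (adjusted p = 0.153, 0.0565 and 0.352), as they did in limma with no filter (adjusted p = 0.193 to 0.207).

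In MDA only the Qiagen comparison passed for hsa-miR-182-5p, at 1.42 (2.67-fold, standard error 0.33, adjusted p = 0.0214), where 3.71% of entries were called higher. The value was 1.15 to 1.68 when single libraries were left out, and the call was lost without either replicate of PC3 ATPS, PC3 VC or MDA Qiagen or without MDA cell replicate 1 (adjusted p = 0.053 to 0.17), with edgeR and with no filter on low values. The MDA differences with ATPS and VC were 0.07 (95% interval -0.65 to 0.79, adjusted p = 1.00) and 0.47 (-0.25 to 1.18, adjusted p = 0.582), where 0.883% and 1.06% of entries were called higher. MDA ATPS replicates 1 and 2, at 15611 and 35221 TPM, lay on either side of both MDA cell libraries. Without MDA cell replicate 2 the MDA differences were 0.30 with ATPS, 0.69 with VC and 1.64 with Qiagen.

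Whether the step from cells to EVs differed between the lines was tested directly. For ATPS it was larger in PC3 by 2.45 on the log2 scale (standard error 0.47, 95% interval 1.44 to 3.46, adjusted p = 0.0409). It was the only entry called in this direction, with 0.353% of entries called in either. For VC the difference was 1.85 (0.84 to 2.87, adjusted p = 0.154) and for Qiagen 0.96 (-0.05 to 1.97, adjusted p = 0.451), where 0.177% and 0.177% of entries were called. Without MDA cell replicate 2 the differences were 2.22 for ATPS, 1.63 for VC and 0.74 for Qiagen. The ATPS call was lost without 10 of the 16 libraries, each in turn, at differences of 2.22 to 2.47 (adjusted p = 0.054 to 0.319). These were PC3 cell replicate 2, MDA cell replicate 2 and both replicates of PC3 ATPS, PC3 VC, PC3 Qiagen and MDA VC. Over all 16 omissions the difference ranged from 1.86 to 3.04, both ends from leaving out 1 of the MDA ATPS libraries. It fell to 1.06 among mature-named entries alone (adjusted p = 0.197), to 0.97 in the test by edgeR (adjusted p = 1.00) and to 0.76 under quantile scaling (adjusted p = 0.625), and was lost with no filter (adjusted p = 0.439). In the test by DESeq2 it was 2.19 (adjusted p = 0.0011), for which no share over all entries is given.

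The isolation methods were compared last, and 0 of 18 comparisons of the 3 members passed, where 0.353%, 1.06% and 1.59% of all entries were called in PC3 and 0.707%, 1.59% and 2.12% in MDA for ATPS against VC, ATPS against Qiagen and VC against Qiagen. At an unadjusted p under 0.05 there were 2 of the 18, both of hsa-miR-182-5p in MDA. It was different between ATPS and Qiagen by -1.35 on the log2 scale (95% interval -2.06 to -0.63, adjusted p = 0.0566) and between VC and Qiagen by -0.95 (-1.67 to -0.24, adjusted p = 0.153). In the test by edgeR 0 of the 18 passed, and in the test by DESeq2 these 2 did, where 21% and 9.31% of the entries it tested were called in either direction. In PC3 the 3 methods gave differences of -0.06 to 0.20 for hsa-miR-182-5p, with intervals that reached no further than -0.78 and 0.91.

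**Figure D3:**
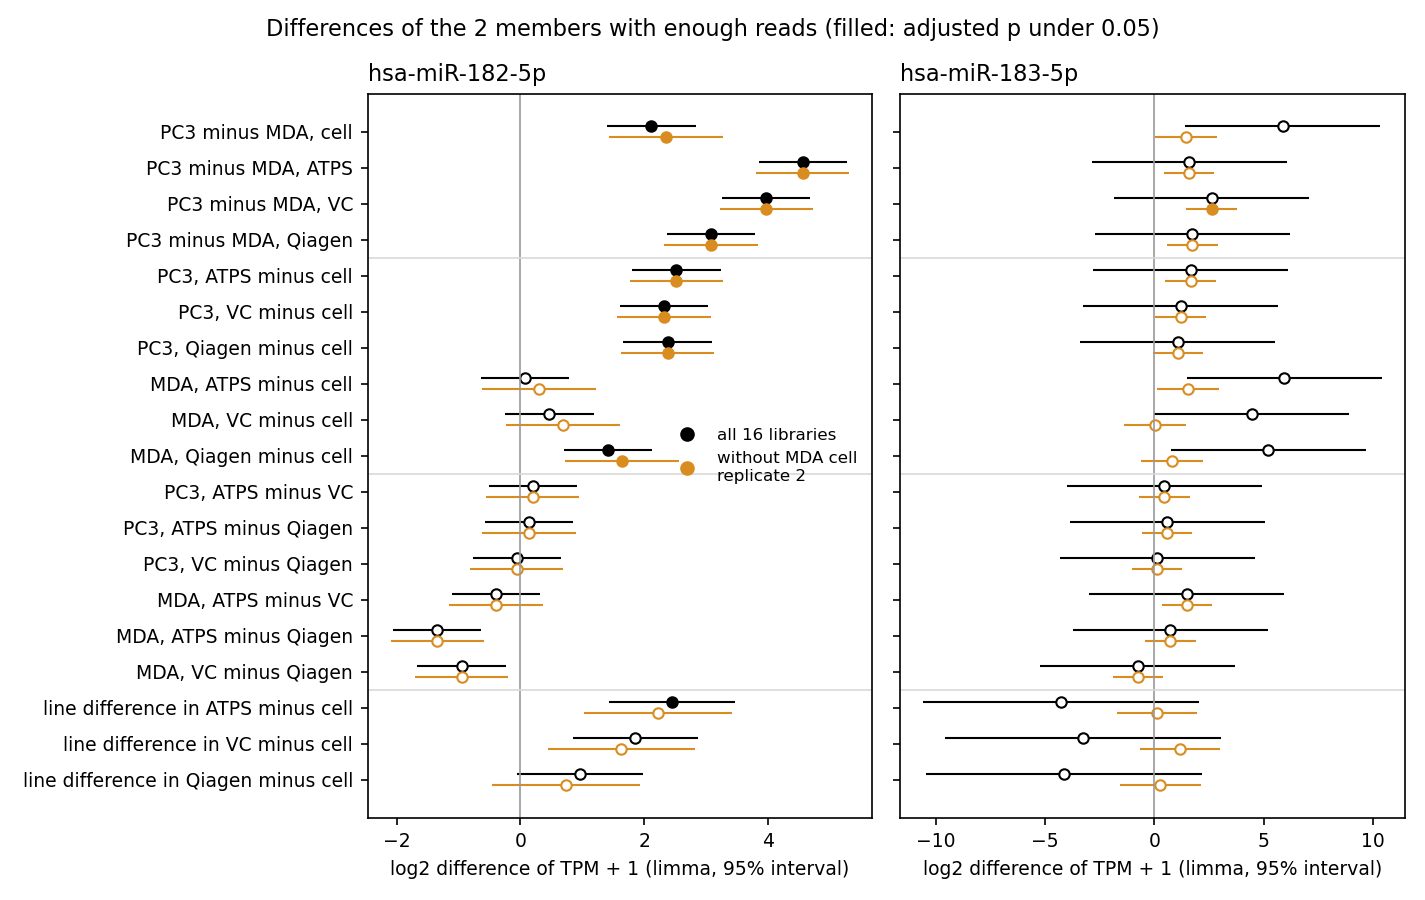
log2 differences of TPM + 1 with 95% intervals from limma for hsa-miR-182-5p and hsa-miR-183-5p in 19 comparisons, with all 16 libraries (black) and without MDA cell replicate 2 (orange), filled where the adjusted p is under 0.05. The intervals of hsa-miR-183-5p narrow when that library, where it has 0 of 153 reads, is left out.

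hsa-miR-183-5p, whose known targets include the transcription factor EGR1, was scarce in every library, with at most 121 reads. It had 43 and 121 reads in PC3 cells, which is 1249 and 1242 TPM. In PC3 EVs it stood at 5968 and 2602 TPM with ATPS (30 and 12 reads), 2532 and 3238 TPM with VC (37 and 47 reads) and 3479 and 1994 TPM with Qiagen (11 and 5 reads). Each PC3 EV library thus lay above both PC3 cell libraries. In MDA cells it was at 451 TPM from 20 reads in replicate 1 and at 0 of 153 reads in replicate 2, which allows a share of up to 1.96% by the floor of 3 reads (upper end of the exact interval 2.38%). In MDA EVs it was at 1041 and 1648 TPM with ATPS (9 and 8 reads), 526 and 412 TPM with VC (13 and 11 reads) and 614 and 1009 TPM with Qiagen (3 and 2 reads). The PC3 library with the lowest value, in cells, lay below 1 MDA library, ATPS replicate 2, so the lines overlapped over all materials. Within each EV method the PC3 libraries lay above the MDA libraries.

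With all 16 libraries, hsa-miR-183-5p passed in 0 of 19 limma comparisons, and in 3 of them at an unadjusted p under 0.05. Its standard error of 2.08 on the log2 scale carries the step from 0 to 451 TPM between the MDA cell libraries. Without MDA cell replicate 2 the standard error was 0.51 and PC3 exceeded MDA by 2.62 in VC EVs (adjusted p = 0.0156). The other line differences without that library were 1.46 in cells (adjusted p = 0.334), 1.59 with ATPS (adjusted p = 0.133) and 1.74 with Qiagen (adjusted p = 0.102). In that fit 5.83% of all entries were called in either direction in VC, 6.01% in cells, 6.71% with ATPS and 6.54% with Qiagen. On the recovered reads of all 16 libraries, DESeq2 called PC3 higher in all 4 materials, where 14.3%, 23.8%, 32.4% and 19.8% of the entries it tested were called in either direction in cells, ATPS, VC and Qiagen, and edgeR in VC alone, where 6.18% were. Pooled over a line, hsa-miR-183-5p had 3196 TPM in PC3 EVs (95% exact Poisson interval 2692 to 3767, 142 reads) and 1244 in PC3 cells (1061 to 1450, 164 reads). In MDA it had 640 in EVs (469 to 854, 46 reads) and 449 in cells (274 to 694, 20 reads).

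hsa-miR-96-5p, known for seed changes that cause hearing loss, was at the limit of detection. It had 3 and 15 reads in PC3 cells, 87.2 and 154 TPM, and 0 or 1 read in each of the other 14 libraries. In PC3 EVs there were 4 reads in 44436 (90.0 TPM, exact Poisson interval 24.5 to 230.5), in PC3 cells 18 in 131830 (136.5, 80.9 to 216). In MDA EVs there were 2 reads in 71827 (27.8, 3.37 to 101) and in MDA cells 1 in 44523 (22.5, 0.569 to 125). Only 1 library, PC3 cell replicate 2, lay above the floor of 3 reads, and folds are left out for this member. A difference between EVs and cells was not detectable at this depth.

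Whether the members kept their proportions was examined through their ratio within a library. For 1 read of hsa-miR-183-5p there were 81.7 and 74.2 reads of hsa-miR-182-5p in PC3 cells and 92.1 to 249 in PC3 EVs. In MDA there were 42.4 in cell replicate 1, 15 and 21.4 with ATPS, 51.3 and 85.7 with VC and 81.0 and 71.0 with Qiagen. The lowest ratios were those of MDA ATPS, and the highest MDA value lay above both PC3 cell libraries but below every PC3 EV library. With 0.5 added to each read number, the log2 ratio was 7.06 ± 0.634 in PC3 and 5.08 ± 1.16 in MDA (SD, n = 8 libraries each), a difference of 1.98 averaged over materials (exact permutation test, two-sided, p = 0.00154, adjusted p = 0.00231). It was 1.07 higher in EVs than in cells (exact permutation test, two-sided, p = 0.0421, adjusted p = 0.0505), which misses the threshold and became 0.52 (p = 0.408) without MDA cell replicate 2. The ratio of hsa-miR-182-5p to hsa-miR-96-5p differed by 3.01 between lines (exact permutation test, p = 0.00154, adjusted p = 0.00231) and by 2.19 between EVs and cells (p = 0.0714, adjusted p = 0.0714). With hsa-miR-96-5p at 0 or 1 read in 14 of 16 libraries, that ratio there rests almost wholly on the read number of hsa-miR-182-5p.

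**Figure D4:**
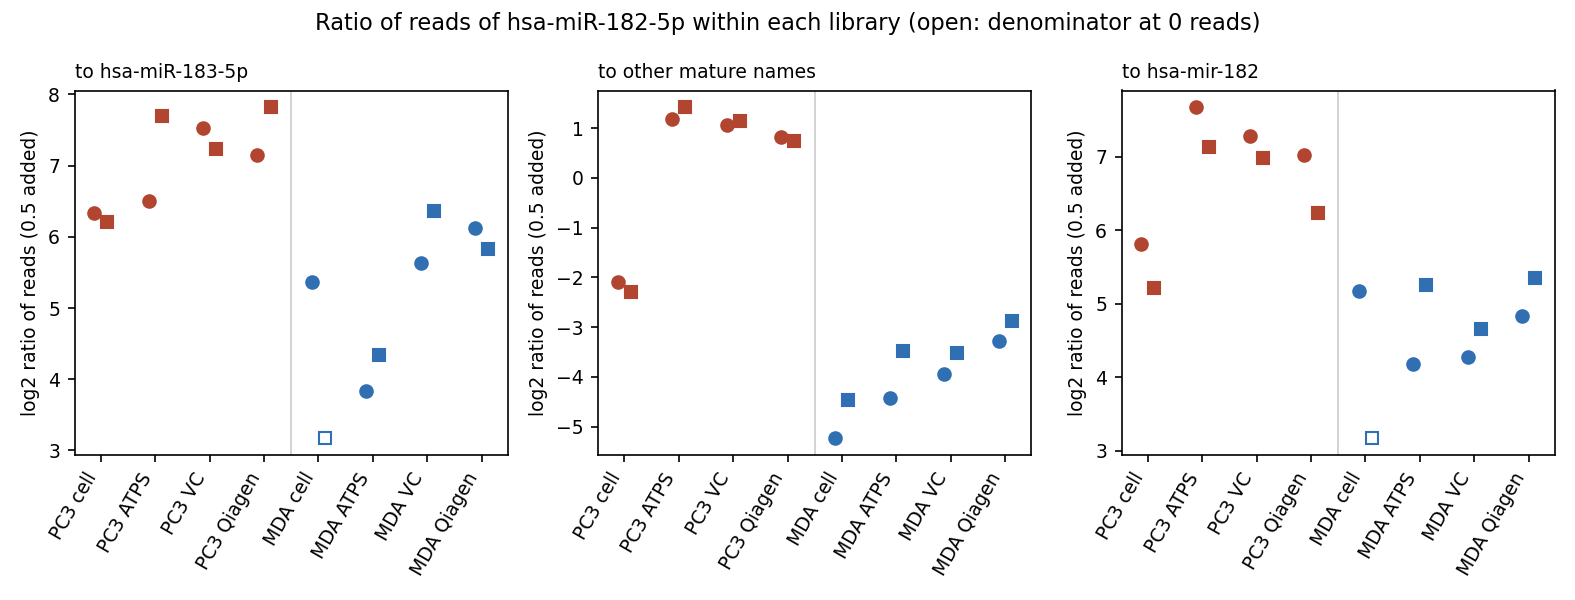
log2 ratio of reads of hsa-miR-182-5p to hsa-miR-183-5p, to all other mature-named entries and to the hairpin-named hsa-mir-182 in each library (0.5 added to each number), with circles for replicate 1, squares for replicate 2 and open symbols where the denominator has 0 reads. PC3 libraries average 7.06 in the first panel and MDA libraries 5.08.

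Across the 15 libraries other than MDA cell replicate 2, log2(TPM + 1) of hsa-miR-182-5p and hsa-miR-183-5p had a Pearson r of 0.86. Among 216 entries compared, hsa-miR-182-5p was the entry most like hsa-miR-183-5p. It was closely followed by hsa-mir-3648-1 and hsa-mir-3648-2 (r = 0.84 each), which lie outside the cluster, so the r is not particular to the cluster. hsa-miR-96-5p had an r of 0.23 with hsa-miR-182-5p and 0.10 with hsa-miR-183-5p, from few reads. The entries most like hsa-miR-182-5p outside the cluster's mature names were hsa-mir-182 (r = 0.91), hsa-let-7a-3 (0.86) and hsa-miR-3614-5p (0.79). These values describe the libraries, which share a line, a method and a depth, and a share of reads that hsa-miR-182-5p itself takes up.

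The table also has entries under hairpin names, which hold reads assigned to a hairpin and not to a mature arm. The RefSeq hairpins of MIR182 and MIR96 are shown with the 5p arm in capitals, to place the mature sequence in the precursor.
MIR182: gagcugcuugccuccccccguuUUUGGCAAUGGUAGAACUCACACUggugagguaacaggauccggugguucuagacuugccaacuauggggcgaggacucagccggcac
MIR96: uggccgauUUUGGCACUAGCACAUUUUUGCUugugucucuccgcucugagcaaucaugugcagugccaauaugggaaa
hsa-mir-182 had 578 reads in all, hsa-mir-183 241 and hsa-mir-96 11, and of the opposite arms only hsa-miR-183-3p had a row, with 1 read. hsa-mir-182 made up a small part of the reads of its gene. Of hsa-mir-182 and hsa-miR-182-5p together, the hairpin name held 1.73% and 2.61% in PC3 cells and 0.468% to 1.27% in PC3 EVs, so that EVs and cells did not overlap. In MDA it held 2.64% in cell replicate 1 (23 reads against 847), 0 of 4 reads in replicate 2, and 2.07% to 4.93% in EVs.

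The ratio of hsa-miR-182-5p to hsa-mir-182 was tested in the same way after the data were seen. It was 2.06 higher on the log2 scale in PC3 than in MDA (exact permutation test, p = 0.00154, the smallest possible) and 1.06 higher in EVs than in cells (p = 0.0102). Without MDA cell replicate 2 the second difference was 0.56 (exact permutation test, p = 0.204). Within PC3 the ratio was 1.54 higher in EVs than in cells. Within MDA it was 0.59 higher with both cell libraries, but against cell replicate 1 alone it differed by -0.42 (EV mean 4.76, cell 5.17), so the direction in MDA turned with the library of 153 reads. The level of hsa-mir-182 itself passed in 0 of 19 limma comparisons with all 16 libraries, and in 4 of them at an unadjusted p under 0.05. The fit without MDA cell replicate 2 leaves 1 MDA cell library, and its effect sizes alone are given for this entry. PC3 then exceeded MDA by 2.02 on the log2 scale in cells, 1.96 with ATPS, 1.30 with VC and 1.64 with Qiagen. In the same fit MDA EVs exceeded MDA cells by 0.65 with ATPS, 1.41 with VC and 1.60 with Qiagen.

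For hsa-mir-183 the hairpin name held a far larger part. It held 35.8% and 49.4% of the reads of hsa-mir-183 and hsa-miR-183-5p in PC3 cells and 21.4% to 55.6% in PC3 EVs, so that here EVs and cells overlapped. In MDA it had 0 reads in both cell libraries and 10 reads against 46 of the mature name in EVs. A count of hsa-miR-183-5p by its mature name alone therefore leaves out up to 55.6% of the reads given to the gene under these 2 names. Whether this part differs between the lines was not tested.

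hsa-mir-96 had reads in VC libraries only, 5 and 4 in PC3 VC and 0 and 2 in MDA VC. Over PC3 VC this is 9 reads in 29127, 309 TPM, against 0 reads in 131830 in PC3 cells. The observed PC3 VC level was 13.6-fold above a floor of 3 reads over the PC3 cell group, 22.8 TPM. That fold leaves out the counting error of the 9 reads and is no lower bound. The exact Poisson interval was 141 to 587 TPM in PC3 VC and reached up to 28.0 TPM in PC3 cells. These intervals pool the reads of a group and leave out the spread between libraries, so they are not a test of the difference. With reads in 3 libraries, 2 of them PC3 VC, the entry entered the limma fit only through the group where it is high, and no test is given. In these PC3 VC libraries the mature hsa-miR-96-5p had 1 and 0 reads. MDA VC had 2 reads in 51456, 38.9 TPM (exact Poisson interval 4.71 to 140.4). MDA ATPS had 0 reads in 13503, where 3 reads would be 222 TPM. PC3 Qiagen, PC3 ATPS and MDA Qiagen held too few reads to set the PC3 VC level against them, since 3 reads would be 529, 311 and 437 TPM there.

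**Figure D5:**
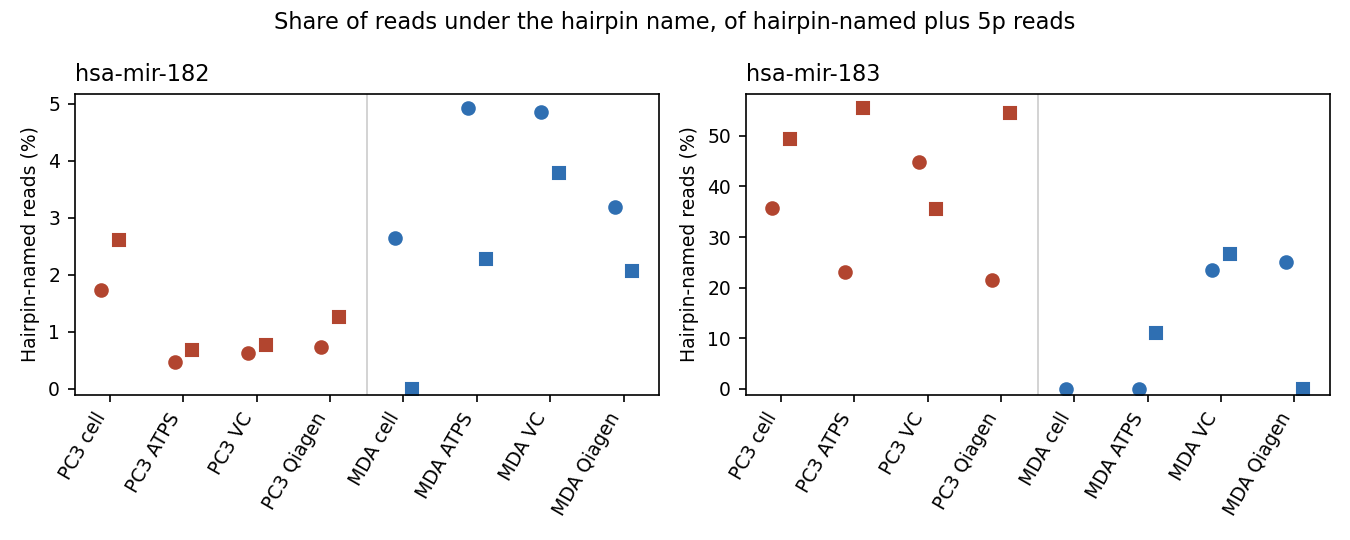
Reads under the hairpin names hsa-mir-182 and hsa-mir-183 as a percentage of hairpin-named plus 5p reads in each library, with circles for replicate 1 and squares for replicate 2. For hsa-mir-182 the PC3 EV libraries lie at 0.468% to 1.27%, below the PC3 cell libraries, and for hsa-mir-183 EVs and cells of PC3 overlap.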

How the data were processed

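Per the labels and the study's methods, the authors trimmed reads at Q20 over 4 bases, kept 18 to 35 bases, mapped them with STAR against hg38 and annotated them with COMPSRA. The sources used here name no versions. The deposited values are named TPM but are CPM over the miRNA reads of a library, and 100% of values above 0 are whole multiples of 1 read within 0.1 read, so whole reads were recovered. MDA cell replicate 2 has too few values for this to be checked on its own. A high entry lowers all others, since each value is a share. The tests had been planned for TPM and were kept.

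The 3 members, the lists and the tests were chosen with earlier results of these data known. The named entries are the members, other entries of their hairpins, the miR-200 family, the marker lists and the entries most like a member (Pearson r, mean of at least 100 TPM). Other entries with a member's seed were to be named too, but none was present. Levels were tested with limma 3.58.1 (trend and robust options) in R 4.3.3 on log2(TPM + 1), with 1 mean for each of 8 groups, over entries with at least 1 TPM in at least 2 libraries. Fold changes are on that scale. There 1 read is 10.3 TPM in PC3 cell replicate 2 and 6536 TPM in MDA cell replicate 2, far above the 1 TPM added. A library at 0 reads can therefore make a difference large. For hsa-miR-183-5p in cells the line difference was 5.87 with MDA cell replicate 2 and 1.46 without it. Benjamini-Hochberg adjustment was made within each of 19 comparisons. Ratios of reads were compared with exact two-sided permutation tests over libraries. Alternatives were other pseudocounts, filters and scalings, edgeR 4.0.16 (quasi-likelihood, TMM) and DESeq2 1.42.0 on recovered reads, a replicate block and leaving out each library. The steps were tested on simulated data. The 153 to 97408 miRNA reads per library set the precision. Counting intervals are exact, and those of limma differences rest on its standard errors and the t distribution. The circRNA and snoRNA tables were not used, and plasma was not analysed here.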

Additional observations from a re-analysis of the deposited data

Results flagged for a closer look

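One result met a rule set for a closer look. The step from cells to ATPS EVs of hsa-miR-182-5p differed between the lines by 2.45 on the log2 scale (limma interaction, standard error 0.47, adjusted p = 0.0409), with 5.73-fold in PC3 and 1.05-fold in MDA. The MDA ATPS libraries, at 15611 and 35221 TPM, differed by a larger ratio than those of any other group for this member, and mature-named reads made up 35.5% and 43.2% of them against 79.8% and 77.5% in PC3 ATPS. The line difference was 1.86 without MDA ATPS replicate 1 and 3.04 without replicate 2, and 1.06 among mature-named entries alone. Beyond these values, the cause of the result was not tested. With groups of 2 libraries, no library was examined for standing apart from its group.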

How the results depend on the processing

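hsa-miR-182-5p stayed called higher in PC3 than in MDA in all 4 materials, and in PC3 EVs than in PC3 cells for all 3 methods, when each library was left out in turn. Counts of member calls were 4 between lines, 4 between EVs and cells, 0 between methods and 1 for the line difference. With no filter on low values all 4 counts were 0. With edgeR the EV and line-difference counts were 0 and 0, and with DESeq2 the counts between lines, EVs and methods were 8, 9 and 2. In the DESeq2 comparisons of lines and methods given above, 9.31% to 32.4% of the entries it tested were called. No such share is given for EVs against cells, so the count of 9 is not read as particular to the members. Between methods the count was 1 with a pseudocount of 10 or 100 TPM or the stricter filter, and 2 when centred on 21 common entries. For the line difference it was 2 with the stricter filter or centring and 0 under quantile scaling or mature-named entries alone. Leaving out single libraries gave 4 to 6 calls between lines, 3 to 6 between EVs and cells, 0 to 2 between methods and 0 to 5 for the line difference. The 5 arose without MDA cell replicate 1, where cells rest on 153 reads. Lone libraries are assumed to vary like the other groups. For the pseudocounts, the other filters and scalings and the omissions of single libraries, no share over all entries is given. Their counts are therefore not read as particular to the members. Centring shifted the median of all entries by over 0.1, to 1.29 from 0.00 between lines with ATPS.

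Same-numbered libraries deviated together little (r of -0.03 to 0.08 in PC3 and -0.04 to 0.07 in MDA). Few reads per entry limit such an r, so it cannot tell whether these libraries share a culture or batch. With the replicate block the counts were 4, 4, 2 and 2, again without a share over all entries beside them. In the ratio tests the replicate block left the ratio of hsa-miR-182-5p to other mature-named entries 2.26 higher in EVs, at an exact p = 0.125 (adjusted p = 0.188), the smallest p that 4 differences allow. Adding 1 read in place of 0.5 brought the EV difference of the ratio to hsa-miR-183-5p to 1.21 (exact permutation test, adjusted p = 0.0413). Without single libraries it ranged from 0.52 to 1.62, and for the ratio to hsa-miR-96-5p from 0.69 to 3.68.

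Some uncalled differences turned direction. For hsa-miR-182-5p in PC3, ATPS minus VC was -0.34 with edgeR, VC minus Qiagen was 0.12 with mature-named entries and 0.83 with edgeR, and the line difference for Qiagen was -0.31 with edgeR. For hsa-miR-183-5p in PC3, ATPS minus VC was -0.000209 with edgeR, and VC minus Qiagen was -0.12 when centred and -0.42 with DESeq2. In MDA its VC minus Qiagen was 0.0708 under quantile scaling and 0.15 with edgeR. Its line difference was 0.37, 0.97 and 0.22 with DESeq2 for ATPS, VC and Qiagen and 0.57 with edgeR for VC. Without single libraries, hsa-miR-182-5p in MDA ranged from -0.52 to 0.66 for ATPS minus cell and -0.98 to 0.19 for ATPS minus VC. hsa-miR-183-5p in PC3 ranged from -0.14 to 1.06 for ATPS minus VC, -0.0174 to 1.18 for ATPS minus Qiagen and -0.28 to 0.52 for VC minus Qiagen. Its line differences ranged from -8.70 to 0.12 (ATPS), -7.66 to 1.15 (VC) and -8.54 to 0.28 (Qiagen), the upper ends without MDA cell replicate 2. The cause was not tested where none is named.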
